A study of Mus musculus with 13 samples.

Results

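Polyamine synthesis and turnover was examined through 10 genes: Odc1, Srm, Sms and Amd1 for synthesis, Azin1, Oaz1 and Oaz2 for control of ornithine decarboxylase, Sat1 and Smox for breakdown, and Dhps, which spends spermidine on a protein modification. Members were taken by symbol, as every probe set that the platform annotation gives to one of these genes. This found 12 of 35556 probe sets on the Mouse Gene 1.0 ST array and 20 of 45101 on the Mouse Genome 430 2.0 array, for 9 of the 10 genes on each. No probe set was named for Amd1 in the tables used here. All values are log2 signals, 1 per probe set and array.

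The cells were B3, a mouse pre-B cell line, infected with murine stem cell virus (MSCV) vectors that carry GFP behind an internal ribosome entry site. At 48 h, cells with haemagglutinin-tagged wild-type Ikaros (HA-Ikaros-IRES-GFP, 2 arrays) were set against cells with the tagged mutant 159A, which is deficient in DNA binding (HA-159A Ikaros-IRES-GFP, 2 arrays), on the 430 2.0 type. On the Gene 1.0 ST type, cells with Ikaros fused to the hormone-binding domain of the estrogen receptor (HA-Ikaros-ERt2-IRES-GFP) received 4-hydroxytamoxifen for 2 h (3 arrays) or 6 h (3 arrays). Cells with the ERt2-IRES-GFP vector received it for 6 h (3 arrays). The drug was thus in all 9 of these samples, and the samples include no vector cells at 2 h and no Ikaros-ERt2 cells without the drug. Duration of drug and group therefore cannot be told apart in the 2 h comparison. At 48 h the samples include no vector cells and no uninfected cells, so which of the 2 groups moved cannot be told. The titles call the arrays biological replicates without saying whether cultures were separate, so p-values measure only how these samples spread, and the small number of arrays limits the precision.

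Ikzf1, the gene that encodes Ikaros, read 13.2 to 13.4 in the 6 Ikaros-ERt2 arrays and 9.16, 9.25 and 9.39 in the vector arrays. One label field of vector replicate 1 names the inducible Ikaros construct, but that array read 9.16, and it was kept in the vector group of its title. At 48 h both groups carry an Ikaros transgene, and Ikzf1 differed by 0.33 on its brightest probe set (adjusted p = 0.175). The mean of its probe sets differed by -4.01 (adjusted p = 0.0184), so they disagreed in direction, and this check does not settle the relative Ikzf1 level of the 48 h groups. Of 9 pre-B cell markers, 8 had a probe set. All 8 were above the low-signal filter at 48 h, and 7 were on Gene 1.0 ST, where Rag1 lay below it at a group mean of 4.18 to 4.27. The summed log2 level of the 8 pre-B markers was 78.3 to 79.1 in vector cells, 77.0 to 77.4 at 2 h and 76.1 to 76.2 at 6 h, and at 48 h it was 98.0 to 98.2 with 159A and 96.7 to 97.3 with Ikaros. These sums hide opposite changes of single markers at 48 h, where Igll1 (-5.92) and Vpreb1 (-3.92) were called lower and Rag1 (3.37), Cd79b (2.12) and Pax5 (1.25) higher. At 6 h Vpreb1 (-1.17), Igll1 (-1.07) and Il7r (-0.84) were called lower. The other markers tested there were not called, with Ebf1 (0.32), Cd79b (0.29) and Pax5 (0.04) positive and Cd79a (-0.17) negative. At 2 h only Vpreb1 (-0.52) was called, and it was lower. The 6 myeloid markers summed to 16.4 to 17.1 with 159A and to 15.0 to 15.1 with Ikaros, with 4 and 5 of them within 1 log2 unit of the lowest value on the array. Of these, Lyz2 differed by -1.74 (adjusted p = 0.0672, not called), Itgam by 0.01, and Csf1r, Cd14, Mpo and Fcgr1 by 0. The part of these marker levels in the results was not tested.

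Polyamines are small positively charged molecules that bind nucleic acids, and dividing cells need them. Ornithine decarboxylase makes putrescine, and spermidine synthase and spermine synthase then add aminopropyl groups donated by decarboxylated S-adenosylmethionine. The pool is kept within limits by antizymes, which carry ornithine decarboxylase to the proteasome, and by acetylation and oxidation of the longer polyamines. Odc1 is a classic target of Myc. Antizyme output is set largely by a ribosomal frameshift that polyamines promote, which an array does not read.

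RefSeq windows upstream of the start site (GRCm38.p6) were matched for 8 of the 10 genes, with 9 windows of 250 bases, and none for Srm and Azin1. Those of Odc1 and Sat1 are shown because these genes differed in opposite directions at 48 h. That of Sms is shown because it alone of the 9 windows held the E-box CACGTG, the hexamer bound by Myc with Max. Capitals mark matches, on either strand, of CACGTG or of TGGGAA, the core of Ikaros sites. Odc1 is read at chr12:17544623-17544872 on the plus strand, Sat1 at chrX:155216450-155216699 on the minus strand, and the farther of the Sms windows at chrX:157492288-157492537 on the minus strand.
Odc1: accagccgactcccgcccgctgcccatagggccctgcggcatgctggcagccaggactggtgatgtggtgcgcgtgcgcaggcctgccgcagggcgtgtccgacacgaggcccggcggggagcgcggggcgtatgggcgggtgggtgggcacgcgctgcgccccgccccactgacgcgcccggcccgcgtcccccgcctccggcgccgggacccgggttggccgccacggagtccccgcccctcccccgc
Sat1: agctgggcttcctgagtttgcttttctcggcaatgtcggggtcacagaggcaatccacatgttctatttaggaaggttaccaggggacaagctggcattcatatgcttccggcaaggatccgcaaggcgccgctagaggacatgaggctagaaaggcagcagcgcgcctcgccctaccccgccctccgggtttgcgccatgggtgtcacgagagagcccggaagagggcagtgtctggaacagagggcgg
Sms: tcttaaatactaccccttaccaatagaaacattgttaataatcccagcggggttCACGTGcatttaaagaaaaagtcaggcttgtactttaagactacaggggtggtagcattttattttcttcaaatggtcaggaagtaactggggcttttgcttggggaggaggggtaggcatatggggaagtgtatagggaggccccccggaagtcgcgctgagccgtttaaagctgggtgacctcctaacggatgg

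The Odc1 and Sat1 windows held neither hexamer, and bases outside the windows were not searched. The Sms match started at -196 from the start site, and 6.02% of all 32851 promoters in the table held CACGTG in the same window. TGGGAA was found on the reverse strand in the windows of Oaz2 (-58) and Amd1 (-241), against 21.6% of all promoters. The Odc1 window was rich in G and C, at 80.0% with 35 CpG pairs, against a median of 52.4% and 6 CpG pairs over all promoters. For Sat1 it was 59.6% with 15 CpG pairs. These matches describe the letters only and say nothing of binding.

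At 6 h of drug, Srm was 0.82 log2 units or 1.77-fold lower in Ikaros-ERt2 than in vector-ERt2 cells. The rate-limiting gene Odc1 differed by -0.10 on its brighter probe set and by -0.28 on the other. No Ikaros-ERt2 array lacked the drug, so a standing difference between these cells and vector cells cannot be told apart from a drug response. Levels are given for bulk RNA, in which fewer cells of a type and less RNA per cell cannot be told apart. A gene was called where the Benjamini-Hochberg adjusted p of limma, over all genes tested, was under 0.05. Of 7 members tested on this array, 1 was called, and it was lower, against 5.78% of 11963 genes called in either direction and 3.2% called lower. In all, 2 of the 7 had an unadjusted p under 0.05, as did 17.8% of all genes. The median change of the 7 was -0.012, and over all genes it was -2e-04.

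**Figure D1:**
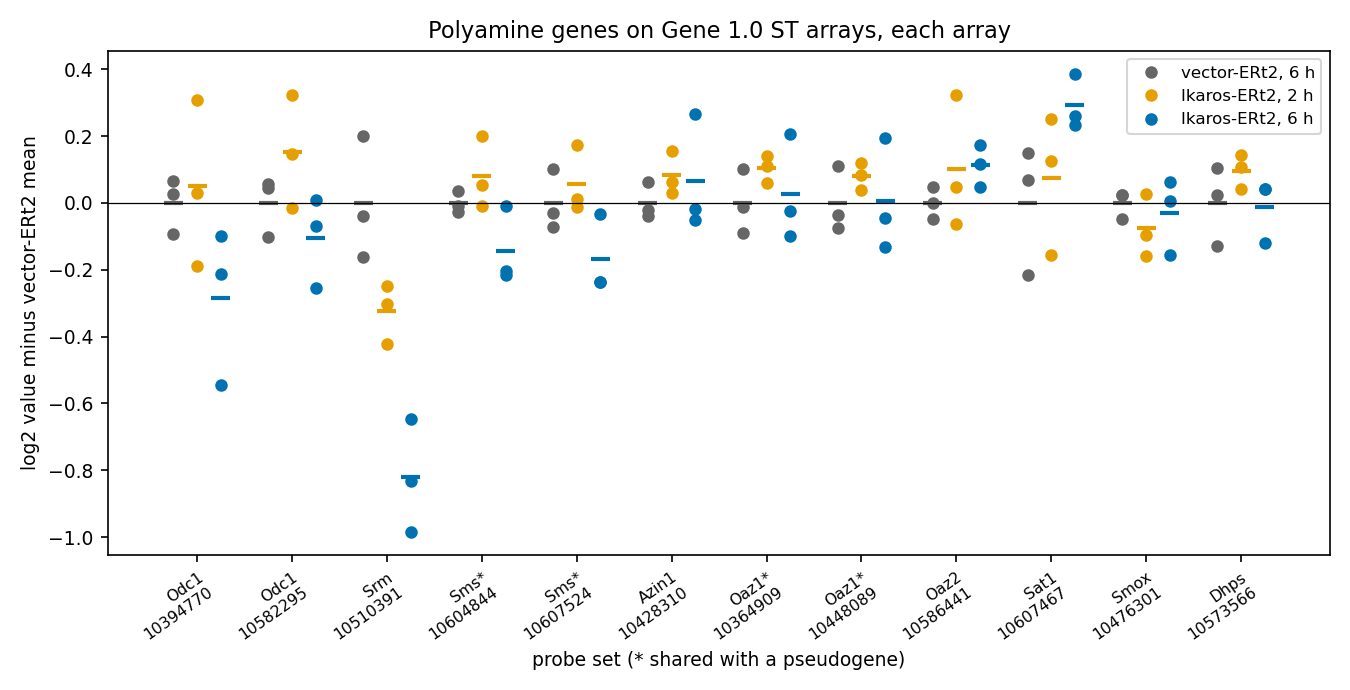
Log2 signal minus the vector mean for each member probe set on the 9 Gene 1.0 ST arrays, by group (vector-ERt2 at 6 h, Ikaros-ERt2 at 2 h and at 6 h), with points for arrays, bars for group means and an asterisk where a probe set is shared with a pseudogene. Srm lies at -0.32 at 2 h and -0.82 at 6 h, while the Odc1 arrays of the 3 groups overlap on its brighter probe set. On the other Odc1 probe set the 6 h arrays lie below the vector arrays, a position that 10.3% of genes tested had.

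Srm encodes spermidine synthase, which turns putrescine into spermidine. It read 10.64, 10.52 and 10.88 in the vector arrays, 10.43, 10.26 and 10.38 at 2 h, and 10.03, 9.70 and 9.85 at 6 h. The 3 groups did not overlap, and every array at 6 h was below every array at 2 h, which were all below vector. No overlap in this direction was found for 10.3% of genes at 6 h over vector, 9.4% at 2 h and 6.91% between 6 h and 2 h. Group means were 10.68 ± 0.18, 10.36 ± 0.09 and 9.86 ± 0.17 (SD, n = 3 each).

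The 6 h change of Srm was -0.82 ± 0.11 (SE; 95% interval -1.06 to -0.58) with an adjusted p of 0.00164. This call was made under all 17 alternatives run, with adjusted p from 0.00101 to 0.0124, leaving out vector replicate 1 among them. At 2 h the change was -0.32 ± 0.11 (-0.57 to -0.08, adjusted p = 0.192). Between 6 h and 2 h it was -0.50 ± 0.11 (-0.74 to -0.26, adjusted p = 0.0697), which 3 of 17 alternatives brought under the threshold (adjusted p over all of them 0.0411 to 0.258). The 2 h and 6 h comparisons share the vector arrays.

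Odc1 encodes ornithine decarboxylase, the rate-limiting first enzyme, and has 2 probe sets on this array. The brighter, 10582295, read 10.27, 10.26 and 10.11 in vector cells, 10.54, 10.20 and 10.36 at 2 h, and 10.23, 10.15 and 9.96 at 6 h. These arrays overlapped between all groups. The changes were 0.15 ± 0.10 at 2 h (adjusted p = 0.563) and -0.10 ± 0.10 at 6 h (95% interval -0.33 to 0.12, adjusted p = 0.693). The other probe set, 10394770, read 10.15, 10.12 and 10.00 in vector cells, 10.40, 9.90 and 10.12 at 2 h, and 9.99, 9.88 and 9.55 at 6 h. Its 6 h arrays lay just below the vector arrays, a position that 10.3% of genes tested had. The difference was -0.28 on average (adjusted p over 21333 probe sets = 0.483).

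Srm and Odc1 were set against each other within each array, a comparison chosen after their values were seen. Srm minus Odc1 (10582295) was 0.46 ± 0.27 in vector cells and -0.25 ± 0.18 at 6 h (SD, n = 3 each), a difference of -0.72 with no overlap of arrays. A two-sided exact permutation test gave p = 0.1, the smallest that 3 against 3 arrays allow. With the other Odc1 probe set the difference was -0.54, also at an exact p of 0.1. At 2 h over vector the differences were -0.48 and -0.37 in the same order, again with no overlap of arrays and an exact p of 0.1. Srm was thus lower relative to Odc1 in every 2 h and 6 h array than in any vector array on either probe set. The design cannot bring p under 0.05 by this test. How many other gene pairs separate in this way was not tested.

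Sms encodes spermine synthase, the last step of synthesis. Both of its Gene 1.0 ST probe sets are also annotated to a pseudogene (Gm8234), so their values cannot be assigned to Sms alone. The first, 10604844, read 10.03, 10.01 and 10.07 in vector cells, 10.09, 10.03 and 10.24 at 2 h, and 9.82, 10.03 and 9.83 at 6 h. The 6 h change was -0.14 (adjusted p over all probe sets = 0.542) and that of the second -0.17 (adjusted p = 0.489), both with overlapping arrays.

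The genes that control ornithine decarboxylase gave no call on this array. Azin1, the antizyme inhibitor that takes antizyme away from the enzyme, differed by 0.08 at 2 h (adjusted p = 0.765) and 0.07 at 6 h (adjusted p = 0.806). Oaz2, an antizyme, differed by 0.10 and 0.11 (adjusted p = 0.72 and 0.635). Oaz1, the main antizyme, was read only by probe sets shared with its pseudogene Oaz1-ps, which differed by 0.10 and 0.08 at 2 h and by 0.03 and 0.0052 at 6 h. The 95% intervals at 6 h were -0.11 to 0.34 for Oaz2 and -0.18 to 0.23 for the first Oaz1 probe set, in the fit of all probe sets.

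Sat1 encodes the acetyltransferase that marks spermidine and spermine for export or oxidation. It read 7.64, 7.72 and 7.35 in vector cells, 7.82, 7.41 and 7.69 at 2 h, and 7.83, 7.95 and 7.80 at 6 h. All 6 h arrays were above all vector arrays, as was so for 11% of genes tested, whereas the 2 h arrays overlapped with them. The 6 h change was 0.29 ± 0.12 (95% interval 0.03 to 0.55) with an unadjusted p of 0.0311 and an adjusted p of 0.212. It was not called.

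Smox encodes spermine oxidase, which returns spermine to spermidine. Its signal was near the middle of all probe sets, with group means of 5.33 to 5.41 and changes of -0.08 at 2 h (adjusted p = 0.755) and -0.03 at 6 h (adjusted p = 0.917). Fibroblast markers had means of 3.86 (Dcn) to 6.41 (Col1a1) at 2 h on this array. Whether Smox was expressed above background therefore cannot be told. Dhps encodes deoxyhypusine synthase, which moves part of spermidine onto the translation factor eIF5A. It read 7.89, 7.65 and 7.81 in vector cells, 7.93, 7.89 and 7.82 at 2 h, and 7.82, 7.83 and 7.66 at 6 h, and all 3 groups overlapped.

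At 2 h, 0 of the 7 members were called by limma, against 1.86% of genes, and 1 (Srm) had an unadjusted p under 0.05, as did 14.1% of genes. From 2 h to 6 h, 0 of 7 were called, against 0.903% of genes, and 2 had an unadjusted p under 0.05, Srm and Odc1, as did 13.6% of genes. Odc1 differed by -0.26 between these times (adjusted p = 0.286).

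At 48 h, cells with wild-type Ikaros had lower Srm and Odc1 and higher Sat1 than cells with 159A. Srm fell by 4.21 log2 units (18.5-fold), Odc1 fell by 2.16 (4.46-fold) on its brightest probe set, and Sat1 rose by 1.95 (3.87-fold). Of 7 members tested, 3 were called, against 14.8% of 10916 genes. The 2 called lower stand against 8.47% of genes and the 1 called higher against 6.38%. In all, 5 of the 7 had an unadjusted p under 0.05, as did 33.7% of all genes, and the median change of the 7 was 0.23 against 0 over all genes.

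These calls rest on 2 arrays a group. Leaving out any 1 of the 4 arrays ended all 3 calls and every other call on the array: the changes then ran from -4.39 to -4.03 for Srm, -2.37 to -1.95 for Odc1 and 1.74 to 2.17 for Sat1, with adjusted p of up to 0.199, 0.217 and 0.227. With the replicate number as a block the calls ended too, at an adjusted p of 0.0554 for Srm, 0.0663 for Odc1 and 0.0554 for Sat1. In the fits without 1 array the lone array of a group is assumed to vary like the other group. With no filter on low genes the adjusted p was 0.0566 for Srm, 0.0985 for Odc1 and 0.136 for Sat1.

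**Figure D2:**
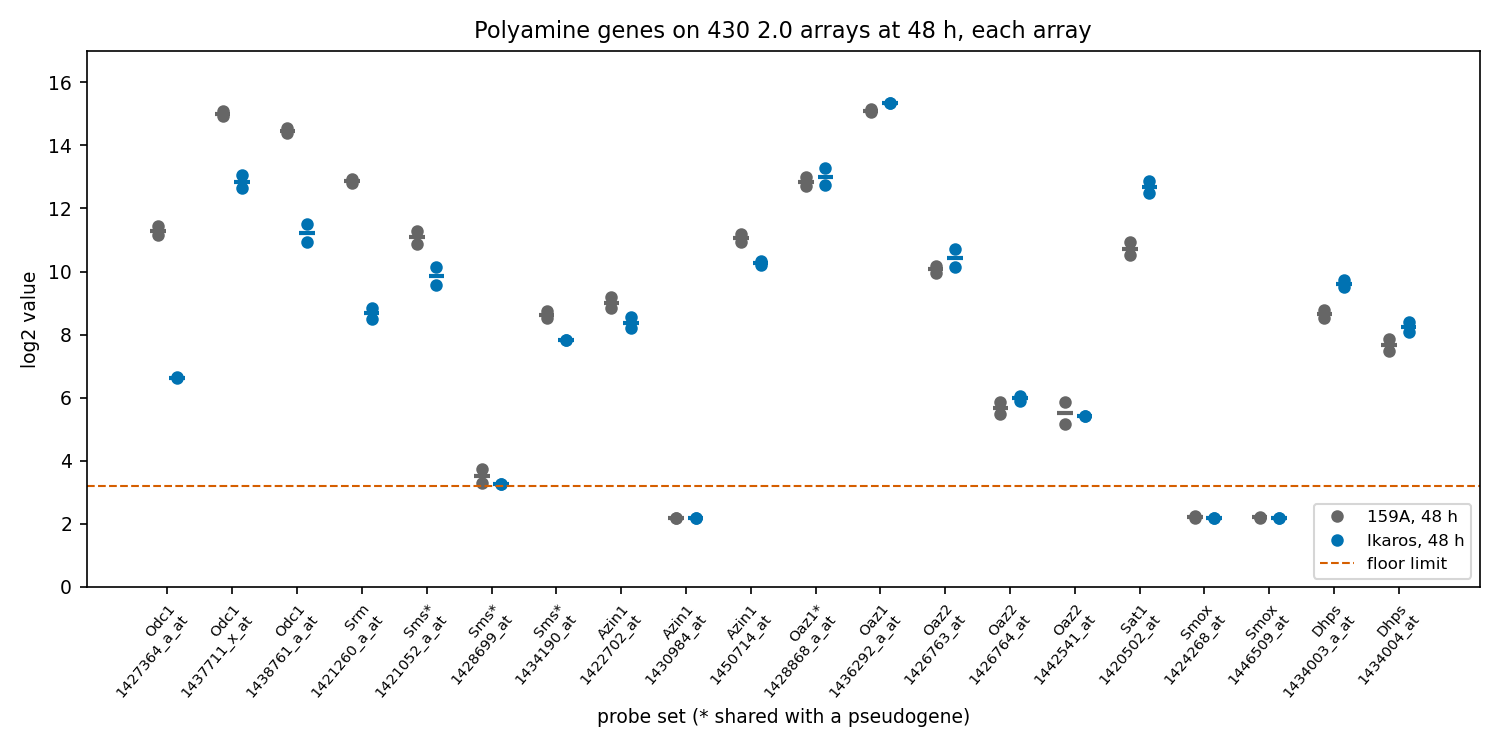
Log2 signal of the members' probe sets on each of the 4 arrays at 48 h, Ikaros and 159A, with points for arrays, bars for group means, a dashed line 1 log2 unit above the lowest value and an asterisk where a probe set is shared with a pseudogene. The 3 Odc1 probe sets and Srm are lower with Ikaros, Sat1 and both Dhps probe sets are higher, and the Smox probe sets lie at the lowest values of the array.

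Srm read 8.85 and 8.49 with Ikaros and 12.95 and 12.81 with 159A. Both Ikaros arrays were thus far below both 159A arrays, a position that 30% of genes tested had, whatever the size (27.7% lay above). The means were 8.67 ± 0.26 and 12.88 ± 0.10 (SD, n = 2 each), and the change was -4.21 ± 0.17 (SE), with an adjusted p of 0.0184.

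Odc1 has 3 probe sets on the 430 2.0 array, and the size of the difference varied between them. The brightest, 1437711_x_at, read 13.06 and 12.64 with Ikaros and 14.93 and 15.08 with 159A (-2.16 ± 0.20, adjusted p = 0.031 over genes). Probe set 1438761_a_at read 11.49 and 10.93 against 14.56 and 14.38, a change of -3.26 or 9.58-fold. Probe set 1427364_a_at read 6.66 and 6.61 against 11.17 and 11.43, a change of -4.66 or 25.3-fold. All 3 were lower in both Ikaros arrays, a position that 30% of genes tested had. In the fit of all 27060 probe sets their adjusted p was 0.052, 0.046 and 0.0247 in this order, against 5.48% of probe sets called and 3.23% called lower. The mean of the 3 probe sets differed by -3.36, so the size of the Odc1 difference depended on the probe set by more than the error of any one of them.

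The 3 Sms probe sets, all shared with the pseudogene Sms-ps, were lower in both Ikaros arrays without reaching the threshold. Of all genes tested, 30% had both Ikaros arrays below both 159A arrays. Probe set 1421052_a_at read 10.13 and 9.57 against 11.30 and 10.89, a change of -1.24 (2.37-fold, adjusted p over all probe sets = 0.169). Probe set 1434190_at read 7.82 and 7.82 against 8.51 and 8.76, a change of -0.82 (adjusted p = 0.0796). The third, 1428699_at, read 3.26 and 3.26 against 3.73 and 3.28, close to the lowest value of 2.19.

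No regulator was called at 48 h. On probe set 1450714_at Azin1 read 10.35 and 10.22 with Ikaros and 11.17 and 10.93 with 159A, a change of -0.77 ± 0.13 (1.7-fold, adjusted p = 0.0644), which was not called. Its second probe set differed by -0.64, and the third lay at the lowest value in all 4 arrays. Oaz1 read 15.33 and 15.34 against 15.05 and 15.16 on the probe set it does not share, a change of 0.23 (adjusted p = 0.152). On its brightest probe set Oaz2 read 10.72 and 10.13 against 10.19 and 9.94 (0.36, 95% interval -0.55 to 1.27, adjusted p = 0.466), with overlapping arrays. Without Ikaros replicate 1 this change was 0.07, and without Ikaros replicate 2 it was 0.66. Oaz2 probe set 1426764_at differed by 0.31 (adjusted p over all probe sets = 0.514). Its arrays did not overlap, and 27.7% of genes tested lay above in this way. Oaz2 probe set 1442541_at differed by -0.09 with overlapping arrays (adjusted p = 0.951).

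Sat1, the acetyltransferase, read 12.88 and 12.48 with Ikaros and 10.94 and 10.51 with 159A. Both Ikaros arrays were above both 159A arrays, as was so for 27.7% of genes tested. The means were 12.68 ± 0.28 and 10.73 ± 0.30 (SD, n = 2 each), and the change was 1.95 ± 0.25 (SE; adjusted p = 0.0436). The call was made in 6 of 14 alternatives, with adjusted p from 0.0107 to 0.227. Both Smox probe sets read 2.19 to 2.26 in all 4 arrays, within 1 log2 unit of the lowest value, and were not tested.

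Dhps, which takes up spermidine for hypusine, read higher on both probe sets in both Ikaros arrays. Of all genes tested, 27.7% had both Ikaros arrays above both 159A arrays. Probe set 1434003_a_at read 9.73 and 9.49 against 8.52 and 8.79, a change of 0.96 ± 0.16 (1.94-fold, adjusted p = 0.0626). Probe set 1434004_at read 8.39 and 8.10 against 7.88 and 7.47, a change of 0.58. The first was not called, although 3 of 14 alternatives brought it under the threshold (adjusted p over all of them 0.0337 to 0.267).

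**Figure D3:**
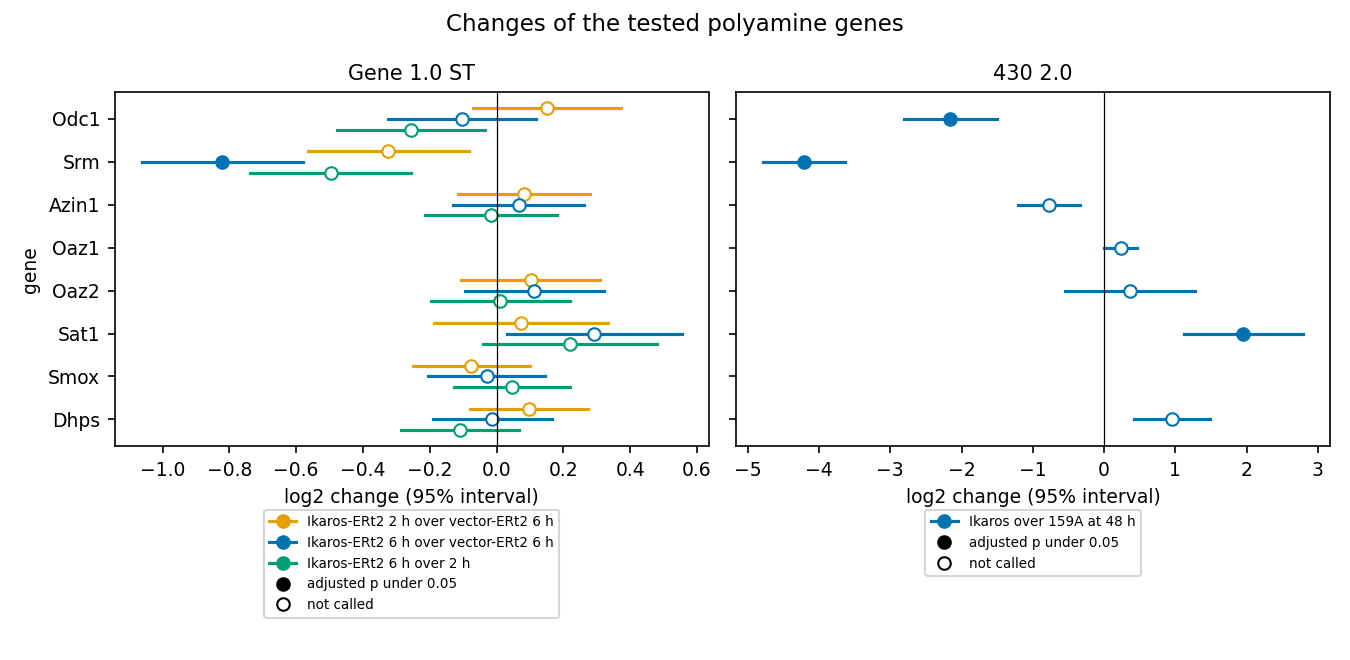
Log2 change of each member tested, with 95% intervals of the limma fit, for Ikaros-ERt2 at 2 h and 6 h over vector-ERt2, for 6 h over 2 h, and for Ikaros over 159A at 48 h, with filled points where a gene was called. Srm is at -0.32, -0.82, -0.50 and -4.21 in this order. Odc1, on the brightest probe set of each array type, is at 0.15, -0.10, -0.26 and -2.16. The 6 h over 2 h value is the difference of the 6 h and 2 h values.

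Set side by side, the 2 h, 6 h and 48 h changes of Myc, whose protein is known to bind Odc1, were -1.32 (adjusted p = 0.00167), -1.46 (adjusted p = 4.4e-04) and -2.86 (adjusted p = 0.018, or 0.0554 with the replicate number as a block). Those of Odc1 on its brightest probe sets were 0.15, -0.10 and -2.16, and those of Srm -0.32, -0.82 and -4.21. On the other Gene 1.0 ST probe set Odc1 differed by 0.05 at 2 h and -0.28 at 6 h. Myc was called lower at 2 h and 6 h, and Odc1 was not called at these times. This does not show that Odc1 was unchanged, as the limma interval of its 6 h change ran from -0.33 to 0.12. On the other probe set it ran from -0.62 to 0.05. Whether the changes of Myc and Odc1 differ, and whether they are linked, was not tested. The 2 designs differ in array type, construct, control and time, so a step from 6 h to 48 h was not tested.

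A wider list of 28 genes covered ornithine supply, the methionine salvage route that recycles the by-product of spermidine and spermine synthesis, other oxidases, transport and the remaining hypusine genes. Probe sets with 1 symbol stood for 24 of them on Gene 1.0 ST, where 15 were tested, and for 25 on 430 2.0, where 16 were tested. At 48 h 3 of 16 were called, all lower, against 8.47% of all genes called lower. At 2 h 1 of 15 was called, higher, against 0.769% of genes, and at 6 h 1 of 15, lower, against 3.2%. From 2 h to 6 h limma called 0 of 15, against 0.903% of genes in either direction, with 4 at an unadjusted p under 0.05 (13.6% of all genes). The median change was -0.021 at 2 h, -0.12 at 6 h and -1.01 at 48 h, against -0.0071, -2e-04 and 0 over all genes.

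Slc7a1, the cationic amino acid transporter that brings in arginine, read 9.29 and 9.07 with Ikaros at 48 h and 12.54 and 12.50 with 159A. Its change was -3.34 (10.1-fold, adjusted p = 0.018), and the mean of its probe sets differed by -2.41 (adjusted p = 0.0159), within a range of 0.00434 to 0.199 over 14 alternatives. On Gene 1.0 ST it was 9.15 ± 0.07 in vector cells and 9.02 ± 0.07 at 6 h (SD, n = 3 each), with overlapping arrays. Dohh, which completes hypusine after Dhps, read 7.05 and 6.95 against 7.95 and 8.20 at 48 h, a change of -1.08 (2.11-fold, adjusted p = 0.0386). The mean of its probe sets differed by -0.46 (adjusted p = 0.0657), and the adjusted p ran from 0.0272 to 0.202 over 14 alternatives. Dohh and Dhps, consecutive enzymes, thus had changes of opposite sign at 48 h, of which only that of Dohh was called. Leaving out any 1 of the 4 arrays ended the calls of Slc7a1, Mtap and Dohh too, with adjusted p of up to 0.199, 0.208 and 0.202, and so did the replicate number as a block (0.0554, 0.0562 and 0.0764).

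Mtap, the phosphorylase that starts methionine salvage, was called higher at 2 h and lower at 48 h. It read 6.25, 6.14 and 6.00 in vector cells, 6.98, 6.65 and 6.64 at 2 h, and 6.47, 6.35 and 6.14 at 6 h. The 6 h arrays overlapped with vector. The 2 h change was 0.63 ± 0.12 (1.55-fold, adjusted p = 0.0211), a call that was lost without Ikaros-ERt2 2 h replicate 1 and without any 1 of the vector arrays (adjusted p up to 0.103), and when every probe set of the table was tested (0.0924). Between 6 h and 2 h it differed by -0.44 (adjusted p = 0.119), and Enoph1, another salvage enzyme, by -0.24 (adjusted p = 0.232). At 48 h Mtap read 9.34 and 8.94 with Ikaros and 11.65 and 11.68 with 159A, a change of -2.53 (5.76-fold, adjusted p = 0.0251).

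Mri1, the isomerase that follows Mtap in the same route, was the gene of the list called lower at 6 h. It read 7.96, 7.94 and 7.85 in vector cells and 7.37, 7.70 and 7.48 at 6 h. These arrays did not overlap, as was so in this direction for 10.3% of genes tested. The change was -0.40 ± 0.09 (adjusted p = 0.0314), and it was called in 9 of 17 alternatives (adjusted p 0.0112 to 0.128).

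**Figure D4:**
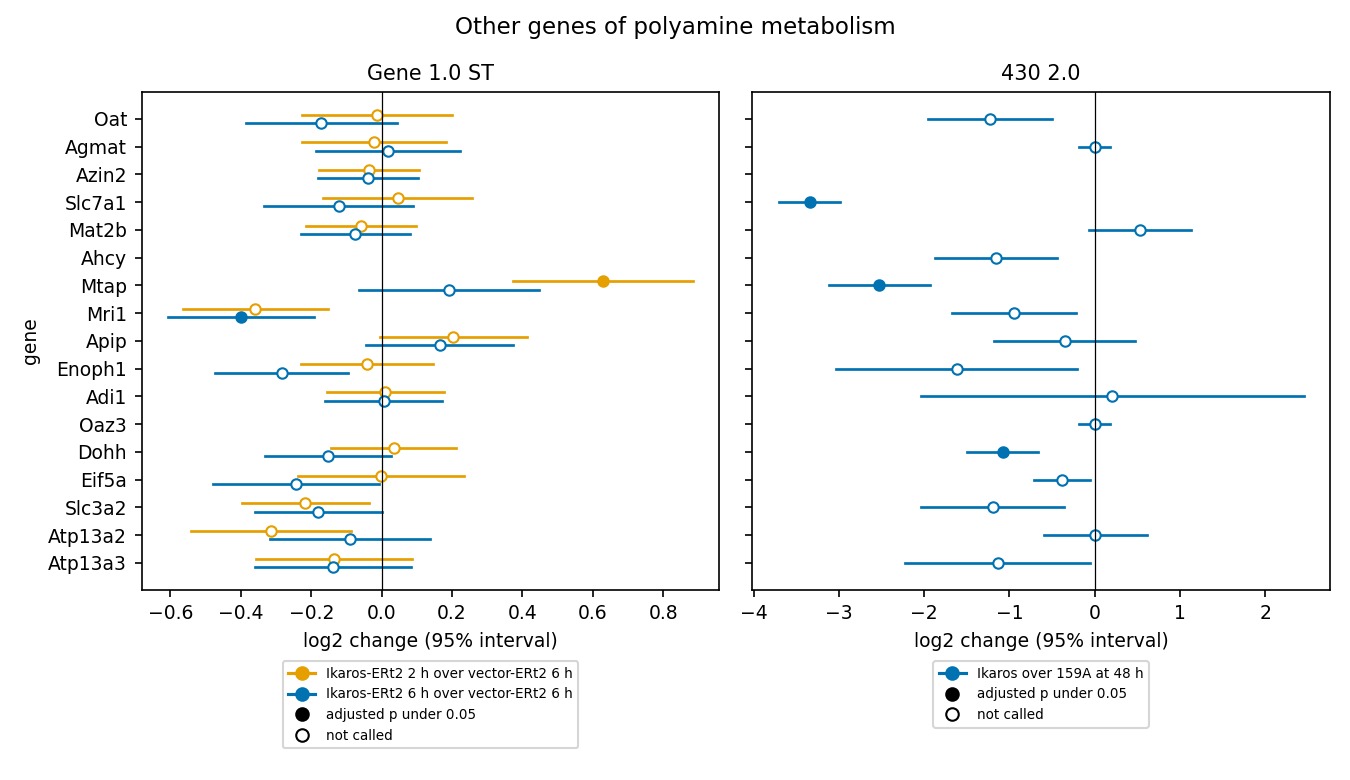
Log2 change of the tested genes of the wider polyamine list with 95% intervals, for Ikaros-ERt2 at 2 h and 6 h over vector-ERt2 and for Ikaros over 159A at 48 h, with filled points where limma called the gene. At 48 h 11 of 16 are negative, with Slc7a1 at -3.34 and Mtap at -2.53, and 3 are positive. The other 2, Agmat and Oaz3, are at 0 and read close to the lowest value of the array. The median over all genes at 48 h is 0. At 2 h Mtap is the gene called higher at 0.63.

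Genes with a course most like those of Odc1 and Srm were taken by the smallest root-mean-square difference, over the 9 Gene 1.0 ST arrays, of log2 values relative to the vector mean. For Odc1 these were Nmd3 (0.0464), Ptges3 (0.0478), Strap (0.0576), D030056L22Rik (0.0578) and Hspa4 (0.0578), against a median of 0.21 over all genes. For Srm they were Rrp1b (0.0809), Lef1 (0.0906), St6galnac4 (0.12), Bcl11a (0.14) and Ccnb1ip1 (0.14), against a median of 0.53. Rrp1b differed from vector by -0.34 at 2 h and -0.73 at 6 h, and Lef1 by -0.44 and -0.84. This is a description over arrays that also share their groups.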

How the data were processed

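Affymetrix arrays of 2 types (9 of Gene 1.0 ST and 4 of 430 2.0) were used. The authors deposited log2 values per probe set; per the submitters' processing notes, affy, limma, RMA and GCRMA were used, with no versions and no statement of which made which type. Each type was fitted alone, and levels were not set across types. On 430 2.0, 36.7% of values lay within 0.01 of the lowest, so differences near this floor have no exact size.

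Probe sets were named from GEO's platform annotation. For each gene, the brightest probe set with 1 symbol stood for it, and the lowest 40% of genes by mean were left out (11963 and 10916 genes tested). Groups came from the titles. All 9 Gene 1.0 ST arrays shared 1 fit in limma 3.58.1 (R 4.3.3; lmFit, eBayes, two-sided, Benjamini-Hochberg over all genes tested, adjusted p under 0.05). A second fit used all probe sets, for members that share them. Exact permutation tests used scipy 1.17.1. The fit was also run on simulated arrays drawn independently of each other. That run does not cover arrays that deviate together.

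The text names all members, Ikzf1 and Myc, of the wider list up to 5 called genes per comparison (or the 2 with the smallest p), and 5 genes most like Odc1 and Srm. Members and lists were chosen with earlier results of these data known. Alternatives were no filter, a 60% filter, quantile normalization, centring, leaving out each array, replicate number as block, robust eBayes with trend, a gene's mean over probe sets, every probe set with 1 symbol, and only the groups compared. Labels give no basis for pairing replicate numbers; from the data, all 3 correlations of deviations were over 0.1 between 2 h and vector arrays only. Every probe set of the table, and centring on the genes tested, were added after seeing the data. Slc7a1 on Gene 1.0 ST was named after its values were seen.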

Additional observations from a re-analysis of the deposited data

How the results depend on the processing

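The 28 member changes were recomputed under 452 alternatives in all: 407 kept their direction and side of the threshold, 21 lost a call, 6 gained one and 18, all of changes that were not called, turned sign. Leaving out 1 array gave 82 to 176 calls over all genes at 2 h, 335 to 652 at 6 h, 9 to 149 for 6 h over 2 h, and 0 to 0 at 48 h, with 0 to 0 members at 48 h. With 1 array left out, the changes that turned sign ran, at 2 h, from -0.035 to 0.19 for Sat1 and from -0.0085 to 0.18 for Oaz2. At 6 h they ran from -0.034 to 0.12 for Azin1, -0.076 to 0.034 for Smox and -0.077 to 0.041 for Dhps. For 6 h over 2 h they ran from -0.071 to 0.12 for Oaz2, -0.12 to 0.041 for Azin1, -1e-04 to 0.11 for Smox, -0.0485 to 0.037 for Ikzf1 and -0.24 to 0.0303 for Myc. Centring each array on its median turned Dhps at 6 h to 0.0056 and Oaz2 for 6 h over 2 h to -0.0056, and centring on the genes tested gave -0.0059 for the latter. Quantile normalization turned Azin1 for 6 h over 2 h to 0.027. The mean of the probe sets turned Ikzf1 at 48 h to -4.01. The cause of these turns was not tested.

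Without the low-signal filter the calls over all genes were 141 at 2 h, 59 for 6 h over 2 h and 185 at 48 h, with 0 members at 48 h. With every probe set of the table they were 89 at 2 h, 393 at 6 h and 2 for 6 h over 2 h, with 1 member called on its brightest probe set at 48 h (Srm). There the brightest Odc1 probe set was at an adjusted p of 0.052, while the other 2 Odc1 probe sets were called. For 6 h over 2 h, centring on the array median gave 61 calls and fitting only the groups compared 0. With the lowest 60% left out, 1 member (Srm) was called for 6 h over 2 h. Centring on the genes tested also called 1 there, and gave 2437 calls at 48 h, where it shifted all changes by 0.11.

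Same-numbered Gene 1.0 ST arrays deviated from their group means with correlations of 0.12, 0.13 and 0.23 between 2 h and vector. Pairs with 6 h arrays ran from -0.26 to 0.24. The changes given above come from the fit without pairs. The replicate number as a block was run only as an alternative, over all 9 of these arrays. Arrays correlated best with their own number in 10 of 18 cases. At 2 h the block changed no call of a member or of Mtap, Ikzf1 or Myc. With the replicate number as a block, 1 member (Srm) was called for 6 h over 2 h, 0 members and 0 genes were called at 48 h, and the calls over all genes were 263 at 2 h, 673 at 6 h and 125 for 6 h over 2 h. At 48 h the correlation was 0.57, a single value, since with 2 arrays a group the deviations of one mirror those of the other. The 430 2.0 floor limits Smox, 1 Azin1 and 1 Sms probe set.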
